A study of Mus musculus with 16 samples.

Results

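The interleukin-18 (IL-18) and interleukin-1 (IL-1) pathway was followed in mouse lung through 10 listed genes. They were the ligands Il18, Il1a and Il1b, the antagonists Il18bp and Il1rn, the receptor chains Il18r1, Il18rap, Il1r1 and Il1r2, and the processing protease Casp1. Members were taken as array probe sets annotated with 1 of these symbols alone. This gave 9 of the 10 genes, each with 1 probe set, among 19938 genes measured, and Il1r1 was not analysed here. Il18 was chosen by its measured level on these same arrays, which was lower after allergen in knockout lungs only, so all its values are given as a description, with no test. The other genes were taken as its pathway. The other 8 measured members were tested.

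Total lung RNA was measured on 16 Affymetrix arrays, 4 in each of 4 groups. Vldlr knockout mice given house dust mite extract (KO HDM) were compared with knockout mice given saline (KO saline), wild-type mice given the extract (WT HDM) with wild-type mice given saline (WT saline), and knockouts with wild types under each treatment. Wild types were B6129SF2/J mice. The sources used here do not give the strain of the Vldlr-/- mice, the ages or which part of the gene was disrupted. In the comparisons between genotypes, loss of Vldlr and strain background therefore cannot be told apart. Vldlr encodes the very low density lipoprotein receptor, and the knockout label names no tissue-specific deletion. House dust mite extract is an inhaled allergen that produces asthma-like inflammation. It was given into the nose at 25 µg in a volume of 10 µl, on 5 days of each week for 6 weeks, and saline was given in the same volume. The labels call the 4 arrays of each group biological replicates but leave the number of animals per RNA open, and the p-values reflect only the variation among these arrays, which may be technical in part.

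IL-18 and IL-1β are made as inactive precursors that caspase-1, the product of Casp1, cuts to their active forms inside inflammasomes, whereas IL-1α is active before it is cut. IL-18 acts through a receptor of the Il18r1 and Il18rap chains and drives interferon-γ production by T and NK cells. IL-1α and IL-1β act through the Il1r1 chain on epithelium, vessels and leukocytes. Both arms have brakes: Il18bp traps IL-18, Il1rn encodes a ligand that occupies the IL-1 receptor without signalling, and Il1r2 encodes a decoy receptor. In the lung IL-18 comes from epithelium and macrophages, among other cells.

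Levels and differences are on the log2 scale, as the authors deposited them. Differences are the first group named minus the second, with limma's standard error (SE) and a Benjamini-Hochberg adjusted p-value computed across the 19938 genes. Genes with an adjusted p below 0.05 are said to have passed. Levels of different probe sets cannot be set against each other. All 16 arrays held high levels of the lung markers Sftpc (13.41 to 14.09), Scgb1a1 (11.82 to 13.66) and Ager (12.45 to 13.07). Vldlr itself was lower in knockouts, with differences of -0.93 under HDM (SE 0.12, limma adjusted p = 0.000277) and -0.76 under saline (SE 0.12, adjusted p = 0.00697), and a signal remained on all KO arrays. KO HDM 4 stood apart on the first principal component, at 7.43 against 20.01 to 23.83 for the other KO HDM arrays. WT HDM 1 and 2 lay at 0.42 and -0.06 on it, and WT HDM 3 and 4 at 13.99 and 11.70. Among saline arrays, KO saline 3 lay nearest to the HDM arrays at -6.69, followed by WT saline 2 at -9.08, KO saline 4 at -10.53 and WT saline 3 at -11.36, and the other 4 lay between -16.42 and -13.94.

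The promoters of the 3 ligand genes and of the receptor antagonist gene are printed. Il18 is the gene the others were gathered around. Il1a and Il1rn passed as higher, and Il1b as lower, after HDM in both genotypes. Of these calls, only Il1rn in knockouts and Il1b in wild types stood with each array left out in turn. Each window runs from 250 bases before to 50 bases after an annotated start, 5′ to 3′ in the direction of the gene, from RefSeq on GRCm38.p6. Capitals mark matches to the motifs searched.
Il18: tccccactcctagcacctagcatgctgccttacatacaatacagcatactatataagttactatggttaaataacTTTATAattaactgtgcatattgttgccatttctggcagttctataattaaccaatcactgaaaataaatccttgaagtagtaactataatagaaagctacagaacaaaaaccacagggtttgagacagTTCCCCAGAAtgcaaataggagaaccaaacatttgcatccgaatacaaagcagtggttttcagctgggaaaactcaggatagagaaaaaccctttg
Il1a: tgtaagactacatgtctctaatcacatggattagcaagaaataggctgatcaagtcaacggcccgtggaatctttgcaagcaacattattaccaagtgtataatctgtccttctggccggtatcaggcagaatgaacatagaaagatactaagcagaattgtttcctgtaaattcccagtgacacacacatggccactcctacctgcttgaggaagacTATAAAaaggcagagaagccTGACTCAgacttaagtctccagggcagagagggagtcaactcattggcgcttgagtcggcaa
Il1b: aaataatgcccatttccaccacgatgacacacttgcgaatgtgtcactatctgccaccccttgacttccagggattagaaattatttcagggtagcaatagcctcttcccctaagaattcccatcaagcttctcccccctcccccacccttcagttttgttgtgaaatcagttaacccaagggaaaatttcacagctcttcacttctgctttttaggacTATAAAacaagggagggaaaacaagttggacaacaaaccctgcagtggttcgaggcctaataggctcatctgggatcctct
Il1rn: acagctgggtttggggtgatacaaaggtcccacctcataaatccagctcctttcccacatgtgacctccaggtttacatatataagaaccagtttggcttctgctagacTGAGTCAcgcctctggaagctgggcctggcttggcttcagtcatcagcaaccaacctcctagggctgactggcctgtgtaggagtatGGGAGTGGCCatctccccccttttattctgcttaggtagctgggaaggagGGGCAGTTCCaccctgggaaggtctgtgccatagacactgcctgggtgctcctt
The Il18 window lies at chr9:50554450-50554749 on the plus strand. The Il1a window at chr2:129309923-129310222 and the Il1b window at chr2:129371090-129371389 lie on the minus strand. The Il1rn window shown, at chr2:24336610-24336909 on the plus strand, is the most upstream of 3 annotated for that gene. All 10 listed genes had at least 1 window in the table, 15 in all.

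The motifs searched, on both strands, were a TATA box (TATAAA), a kB-like site (GGG and CC with 5 free bases between them), an AP-1 site (TGANTCA), a STAT6 site (TTC and GAA with 4 free bases between them) and a PU.1 site (GAGGAAGT). Of 32851 mouse windows of the same length, 13.6% held the TATA box, 50.8% the kB-like site, 7.81% the AP-1 site, 6.95% the STAT6 site and 3.2% the PU.1 site. In the gene's own direction, TATAAA began at position -32 from the start of Il1a and at -31 from that of Il1b. Both IL-1 ligand genes, whose RNA moved in opposite directions with HDM, held the box at nearly the same place. The Il1a window also held an AP-1 match at -12. The Il1rn window held an AP-1 match at -141 and kB-like matches at -54 and -4, and its other 2 windows, which overlap, shared 1 STAT6 match and 1 kB-like match, with TATAAA on the opposite strand in 1 of them. The Il18 window held a STAT6 match at -46 and, on the opposite strand, TATAAA at -175. These matches are descriptions of letters in a window, and no factor was measured at them.

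Il18 was lowest in KO HDM lungs and highest in KO saline lungs. Its level was 8.69, 8.79, 8.48 and 8.60 on KO HDM arrays 1 to 4, against 10.11, 9.96, 10.50 and 10.27 on KO saline arrays 1 to 4. The WT HDM arrays stood at 10.14, 9.58, 8.64 and 9.68, against 9.83, 9.31, 9.57 and 9.47 on the WT saline arrays. The KO HDM and KO saline arrays did not overlap, whereas WT HDM 3 alone of the WT arrays fell within the range of the KO HDM arrays and the other 3 WT HDM arrays lay within or above that of WT saline. As a description, the mean was 8.64 ± 0.13 (SD, n = 4) in KO HDM lungs and 10.21 ± 0.23 in KO saline lungs, a difference of -1.57 or 2.97-fold lower. In wild types it was 9.51 ± 0.63 under HDM and 9.55 ± 0.22 under saline, a difference of -0.03. The order of the 4 means was therefore KO HDM, WT HDM, WT saline and KO saline from low to high, and the 2 WT groups differed by less than the spread of either. Between genotypes the same arrays gave -0.87 under HDM, with overlap at WT HDM 3, and 0.66 under saline, with no overlap. The HDM change in knockouts minus that in wild types was -1.54. These comparisons share arrays with the one that picked the gene.

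**Figure D1:**
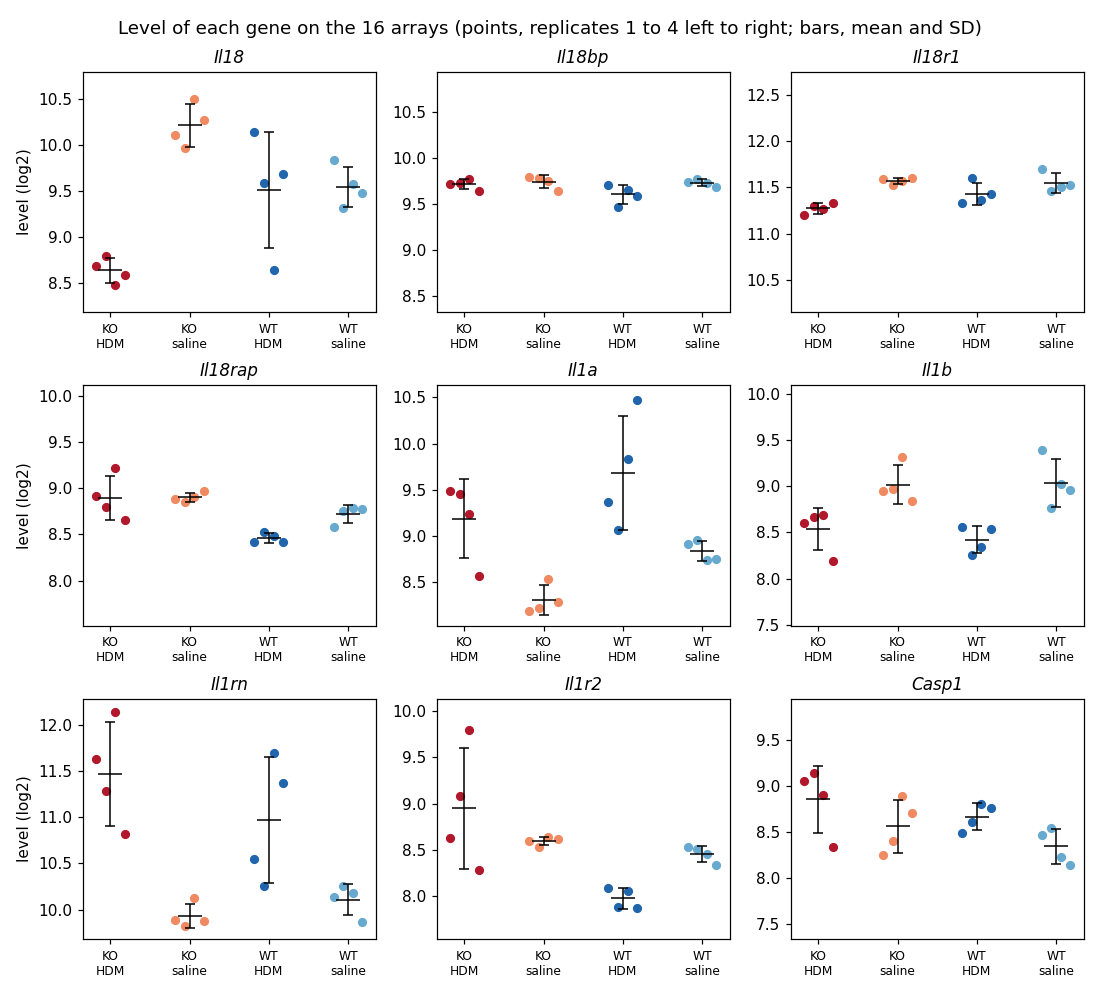
Level (log2) of the 9 measured genes on each array, by group, with mean and SD (n = 4). Every panel spans the same number of log2 units, so Il18, Il1a, Il1rn and Il1r2 can be seen to vary most and Il18bp least, and the KO HDM points of Il18 lie between 8.48 and 8.79, below all KO saline points.

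Among 17219 other named genes, those whose levels followed Il18 most closely over the 16 arrays were Htr2c (Pearson r = 0.94), a serotonin receptor, Flvcr2 (r = 0.93), a membrane transporter, Krt79 (r = 0.93), a keratin on the alveolar macrophage marker list, Kcnn3 (r = 0.90), a potassium channel, and Sptssb (r = 0.89), a subunit of the first enzyme of sphingolipid synthesis. These 16 points form groups, and the r describes likeness only. These genes were picked for their r on the same arrays. With each group's mean removed, r with Il18 was 0.80 for Htr2c, 0.75 for Flvcr2, 0.69 for Krt79, 0.72 for Kcnn3 and 0.61 for Sptssb. All 5 had the Il18 order at its ends: Sptssb averaged 7.89 in KO HDM lungs and 9.35 in KO saline lungs, with 8.45 in WT HDM and 8.79 in WT saline lungs. The genes that ran most opposite were Chil5 (r = -0.94), a chitinase-like protein, Corin (r = -0.92), a membrane serine protease, Tm4sf19 (r = -0.91), a membrane protein, Cdh6 (r = -0.90), a cadherin, and Rbp4 (r = -0.89), a retinol carrier. Tm4sf19 averaged 12.65 in KO HDM lungs and 8.58 in KO saline lungs, with 10.42 in WT HDM and 9.74 in WT saline lungs.

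Markers of macrophages and epithelium moved on the same arrays, in both directions. Their counts stand beside the 4.96% of all genes that rose and 3.88% that fell with HDM in knockouts, and the 7.86% that rose and 9.72% that fell in wild types. In the alveolar macrophage list 4 of 10 measured genes fell and 1 rose with HDM in knockouts, and 2 rose and none fell in wild types. The mean level of that list per array lay between 10.07 and 10.39 in KO HDM lungs and between 10.45 and 10.58 in KO saline lungs, with no overlap, and between 10.30 and 10.65 in WT HDM and 10.22 and 10.35 in WT saline lungs. All 10 of its genes had a lower HDM change in knockouts than in wild types (median -0.35), 1 of which passed, Krt79 (-0.83, SE 0.16, limma adjusted p = 0.0244). Krt79 is also among the genes picked above for likeness to Il18, so its call is not separate from that choice. The monocyte and interstitial macrophage list went the other way, with 5 of 9 genes higher and 1 lower in knockouts and 3 higher in wild types. Its mean per array lay between 9.77 and 10.28 in KO HDM and 9.51 and 9.75 in KO saline lungs, with no overlap. In wild types it lay between 9.68 and 10.07 under HDM and 9.48 and 9.68 under saline, with a narrow overlap. No gene of this list passed for the difference between the HDM changes. In airway epithelium, 5 of 8 club cell genes and 5 of 9 ciliated cell genes fell with HDM in knockouts, with the secretoglobin Scgb3a2 at -1.05 (adjusted p = 0.000167) and Tppp3 at -0.73 (adjusted p = 0.000157), against 2 of 8 lower and 1 higher, and 0 of 9 lower and 1 higher, in wild types. Club cell means per array were 10.74 to 11.25 in KO HDM lungs and 11.42 to 11.53 in KO saline lungs, and ciliated cell means 9.39 to 9.80 in KO HDM lungs and 9.95 to 10.12 in KO saline lungs. In wild types club cell means were 11.13 to 11.53 under HDM and 11.25 to 11.49 under saline. Ciliated cell means there were 9.80 to 10.22 and 9.80 to 9.90, and both lists overlapped. The difference between the HDM changes passed for 1 of 8 club cell genes, Scgb3a2, and 0 of 9 ciliated cell genes. In whole lung, fewer cells of a type and less RNA per cell cannot be told apart. Alveolar type 1 cell genes fell in both genotypes, 6 of 8 in knockouts and 3 of 8 in wild types, and of 10 alveolar type 2 cell genes 2 fell in knockouts, and 3 rose and 1 fell in wild types. The part of these cells in the Il18 values was not tested.

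**Figure D2:**
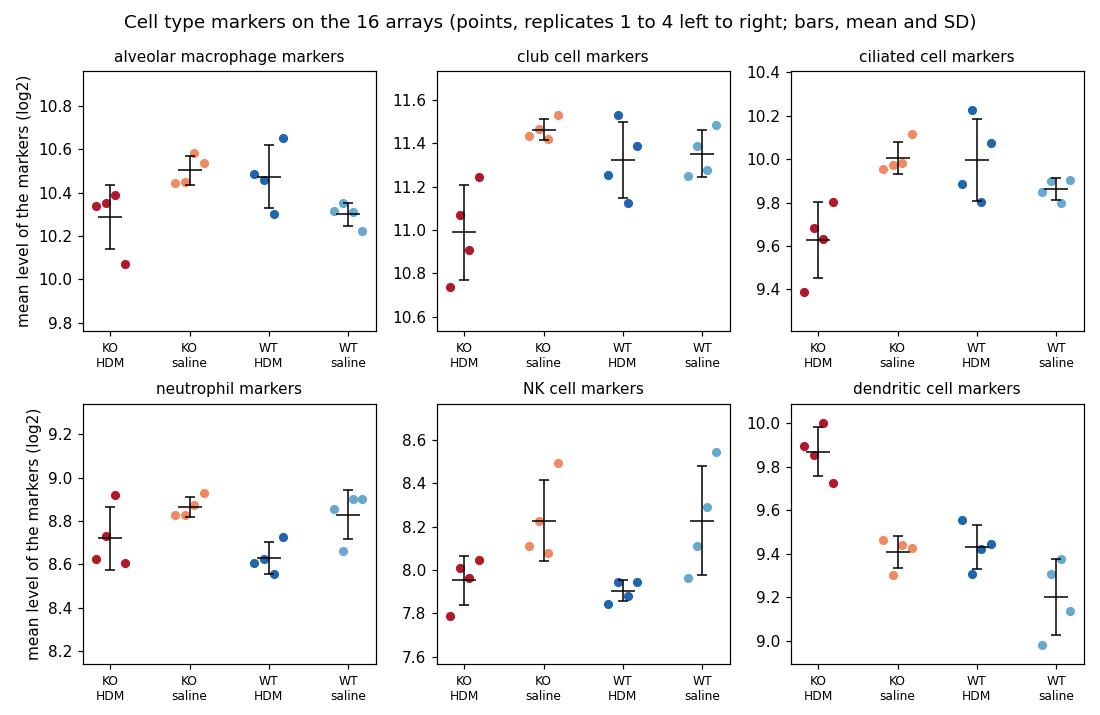
Mean log2 level of 6 marker lists on each array, by group, with mean and SD (n = 4). Alveolar macrophage, club and ciliated cell markers of the KO HDM arrays lie below those of the KO saline arrays without overlap, dendritic cell markers lie above them, NK cell markers lie below saline in both genotypes without overlap, and neutrophil markers overlap.

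Of the 2 receptor chains of IL-18, Il18r1, which binds the ligand, fell with HDM in knockouts. Il18r1 was at 11.20, 11.30, 11.26 and 11.33 on the KO HDM arrays, against 11.59, 11.52, 11.57 and 11.60 on the KO saline arrays. The groups did not overlap, and all 4 KO HDM values were lower. The difference was -0.29 (SE 0.06, 1.23-fold lower, limma adjusted p = 0.00789) and passed without any 1 of the 8 arrays. In wild types it was 11.43 ± 0.12 under HDM and 11.55 ± 0.11 under saline (SD, n = 4), with overlap, and did not pass (-0.12, 95% interval -0.25 to 0.02, limma adjusted p = 0.205). The difference between these changes did not pass (-0.18, SE 0.09, limma adjusted p = 0.357), so a response particular to knockouts was not shown.

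Il18rap, the signalling partner chain, took another course and was higher in KO HDM than in WT HDM lungs. It stood at 8.91, 8.80, 9.21 and 8.66 on the KO HDM arrays, against 8.42, 8.53, 8.49 and 8.41 on the WT HDM arrays. All KO HDM values were higher, and the difference of 0.43 (SE 0.09, 1.35-fold, limma adjusted p = 0.00614) passed without any 1 array, with values between 0.33 and 0.51, but not when these 8 arrays were fitted alone (adjusted p = 0.058). Under saline it was 8.88, 8.85, 8.90 and 8.97 in knockouts, against 8.58, 8.75, 8.78 and 8.77 in wild types. These arrays did not overlap either, yet the difference of 0.18 (SE 0.09, limma adjusted p = 0.66) did not pass. It fell with HDM in wild types (-0.26, SE 0.09, limma adjusted p = 0.0489) but this call ended without any 1 of WT saline 2, 3 and 4 and WT HDM 1 to 4 (adjusted p between 0.0647 and 0.108), and after quantile normalization (adjusted p = 0.152) or a shift to equal array medians (adjusted p = 0.0635). In knockouts the HDM difference was close to 0 (95% interval -0.19 to 0.18).

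The soluble trap of IL-18 varied least. Il18bp averaged 9.71 ± 0.05 in KO HDM lungs and 9.74 ± 0.07 in KO saline lungs, and 9.60 ± 0.10 in WT HDM and 9.73 ± 0.04 in WT saline lungs (SD, n = 4). It passed in no comparison: its HDM difference was -0.03 in knockouts (95% interval -0.15 to 0.09, limma adjusted p = 0.805) and -0.13 in wild types (95% interval -0.25 to -0.01, limma adjusted p = 0.125). Casp1 did not pass either. Its level was 9.05, 9.14, 8.90 and 8.33 on the KO HDM arrays, against 8.25, 8.40, 8.89 and 8.71 on the KO saline arrays, and the groups overlapped through KO HDM 4 and KO saline 3. The difference was 0.29 (95% interval -0.04 to 0.63, limma adjusted p = 0.284), and without KO HDM 4 it was 0.47 and passed (adjusted p = 0.0272). In wild types Casp1 averaged 8.67 ± 0.14 under HDM and 8.35 ± 0.19 under saline (0.32, limma adjusted p = 0.157).

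The IL-1 ligands moved in opposite directions with HDM, and did so in both genotypes. Il1a, the ligand that needs no cleavage, was at 9.48, 9.46, 9.24 and 8.56 on the KO HDM arrays, against 8.18, 8.22, 8.54 and 8.28 on the KO saline arrays. In wild types it was at 9.36, 9.06, 9.83 and 10.47 under HDM, against 8.91, 8.96, 8.74 and 8.75 under saline. HDM values lay above saline values within each genotype without overlap, narrowly so at KO HDM 4 and WT HDM 2. Il1a rose by 0.88 in knockouts (SE 0.23, 1.84-fold, limma adjusted p = 0.0245) and by 0.84 in wild types (SE 0.23, 1.79-fold, limma adjusted p = 0.0217). The call in knockouts ended without any 1 of KO saline 1, 2 and 4 and KO HDM 1, 2 and 3 (adjusted p between 0.058 and 0.0793) and with a variance trend and robust estimation (adjusted p = 0.0541), and the call in wild types without WT saline 3 (adjusted p = 0.0519) or WT HDM 4 (0.58, adjusted p = 0.0621). The HDM changes differed by 0.04 between genotypes (95% interval -0.65 to 0.73, limma adjusted p = 0.971). Il1a was also lower on all 4 KO saline than on all 4 WT saline arrays, but the difference did not pass (-0.53, SE 0.23, limma adjusted p = 0.576).

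Il1b, the ligand cut by caspase-1, fell. It was at 8.60, 8.67, 8.69 and 8.20 on the KO HDM arrays, against 8.95, 8.97, 9.32 and 8.84 on the KO saline arrays. In wild types it was at 8.56, 8.26, 8.34 and 8.53 under HDM, against 9.39, 8.77, 9.02 and 8.96 under saline. All HDM values lay below the saline values of the same genotype. The change was -0.48 in knockouts (SE 0.13, 1.40-fold lower, limma adjusted p = 0.0305) and -0.61 in wild types (SE 0.13, 1.53-fold lower, limma adjusted p = 0.00606). The call in wild types stood without any 1 array, and that in knockouts ended without any 1 of KO saline 1, 2 and 3 and KO HDM 1 and 4 (adjusted p between 0.0528 and 0.0915). The changes differed by 0.13 between genotypes (limma adjusted p = 0.775). Neutrophils, a source of IL-1β, had markers that moved on the same arrays: 4 of 12 fell and 1 rose in knockouts, and 6 fell and 1 rose in wild types. S100a8, an abundant neutrophil protein, fell in both (-0.36 in knockouts and -0.51 in wild types), and the gene that rose in both was Retnlg (2.14 and 1.59). Over all genes 3.88% fell in knockouts and 9.72% in wild types. The mean level of the list per array was 8.60 to 8.92 in KO HDM and 8.83 to 8.93 in KO saline lungs, and 8.55 to 8.73 in WT HDM and 8.66 to 8.90 in WT saline lungs, with overlap in both. Their part in the Il1b result was not tested.

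Il1rn, the receptor antagonist, rose most of the members tested. It was at 11.64, 11.29, 12.14 and 10.81 on the KO HDM arrays, against 9.89, 9.82, 10.12 and 9.88 on the KO saline arrays. In wild types it was at 10.55, 10.26, 11.70 and 11.38 under HDM, against 10.14, 10.26, 10.17 and 9.87 under saline. Knockout groups were far apart, whereas WT HDM 3 and 4 were high and WT HDM 1 and 2 close to saline, with WT HDM 2 at the upper edge of the WT saline arrays. Il1rn rose by 1.54 in knockouts (SE 0.27, 2.91-fold, limma adjusted p = 0.00177), a call that stood without any 1 array, and by 0.86 in wild types (SE 0.27, 1.82-fold, limma adjusted p = 0.0375). The call in wild types ended without any 1 of the 4 WT saline arrays, WT HDM 3 or WT HDM 4 (adjusted p between 0.0595 and 0.105), after quantile normalization (adjusted p = 0.0619), with a variance trend and robust estimation (adjusted p = 0.0681) and with these 8 arrays fitted alone (adjusted p = 0.0535). The changes differed by 0.68 between genotypes (SE 0.38, 95% interval -0.12 to 1.48), which did not pass (limma adjusted p = 0.402).

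Il1r2, the decoy receptor, was higher in knockouts than in wild types under HDM. It was at 8.63, 9.09, 9.80 and 8.28 on the KO HDM arrays, against 8.08, 7.88, 8.06 and 7.87 on the WT HDM arrays. All KO HDM values were higher, with KO HDM 3 highest. The difference was 0.98 (SE 0.20, 1.97-fold, limma adjusted p = 0.00695), between 0.69 and 1.20 and past the test without any 1 array, but not when these 8 arrays were fitted alone (adjusted p = 0.0699). Under saline Il1r2 averaged 8.60 ± 0.05 in knockouts and 8.46 ± 0.08 in wild types (SD, n = 4), with no test passed (0.14, limma adjusted p = 0.951). The HDM difference was 0.35 in knockouts (limma adjusted p = 0.319) and -0.48 in wild types (limma adjusted p = 0.1), and neither passed, although no WT HDM value reached a WT saline value. The difference between these changes was 0.83 (SE 0.29, limma adjusted p = 0.161). Without KO HDM 4 it was 1.06 and passed (adjusted p = 0.017), and the HDM difference in knockouts was then 0.58 and passed (adjusted p = 0.0325). Neutrophils carry much Il1r2. Of 12 neutrophil markers 1 was higher in KO HDM than in WT HDM lungs, the chemokine receptor Cxcr2 (0.99, SE 0.24, limma adjusted p = 0.0154), and none was lower, where 11.7% of all genes passed. The median difference of the list was 0.04, and its mean levels per array overlapped, at 8.60 to 8.92 in KO HDM and 8.55 to 8.73 in WT HDM lungs. The part of neutrophils in this result was not tested.

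**Figure D3:**
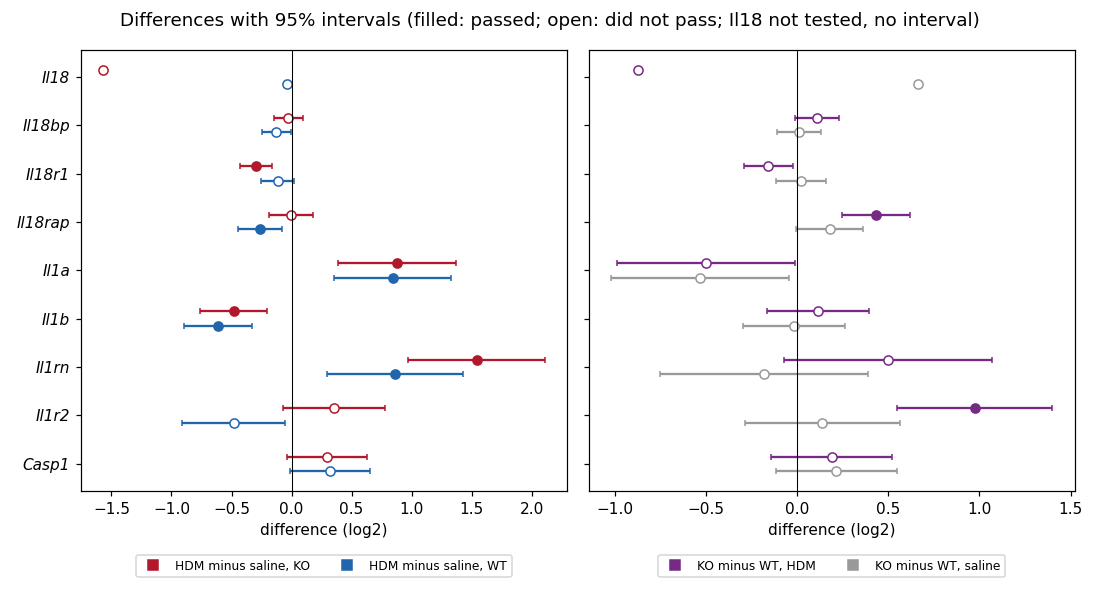
Differences (log2) with 95% intervals for the 9 genes, HDM minus saline on the left and knockout minus wild type on the right. Filled points passed: Il1a, Il1b and Il1rn in both genotypes, Il18r1 in knockouts, Il18rap in wild types, and Il18rap and Il1r2 between genotypes under HDM; Il18 is shown as points alone because it was not tested.

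Of the 8 members tested, 4 passed with HDM in knockouts, 2 higher and 2 lower, where 8.84% of all genes passed (4.96% higher and 3.88% lower). With HDM in wild types 4 passed, 2 higher and 2 lower, where 17.6% of all genes passed (7.86% higher and 9.72% lower). Between genotypes 2 passed under HDM, both higher in knockouts, where 11.7% of all genes passed (5.84% higher and 5.83% lower). None passed between genotypes under saline by limma, with 1 at an unadjusted p under 0.05 (Il1a), where 0.231% of all genes passed (0.0903% higher and 0.14% lower). None passed for the difference between the HDM changes, with 1 at an unadjusted p under 0.05 (Il1r2), where 0.802% of all genes passed (0.356% higher and 0.446% lower). The members had been chosen with earlier results of these arrays known, so these counts describe them and support no statement about the pathway. Without WT saline 2 and 3, 1 of the 4 calls with HDM in wild types remained, that of Il1b.

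Several members also ranked alike across the KO HDM arrays. KO HDM 4 was the lowest KO HDM array for 7 of the 9 genes, all except Il18 and Il18r1, and KO HDM 3 the highest for 5. The share of all genes lowest on KO HDM 4 was not counted, so the 7 of 9 is a description alone. The mean level of eosinophil markers per array was likewise lowest on KO HDM 4, at 9.38 against 9.74 to 10.05 on the other KO HDM arrays, and that of alveolar macrophage markers was 10.07 against 10.34 to 10.39. Other lists went the other way. Club cell markers were highest on KO HDM 4, at 11.25 against 10.74 to 11.07 on the other KO HDM arrays. So were the ciliated, alveolar type 1, alveolar type 2, endothelial, NK cell and smooth muscle lists. Il18 on KO HDM 4 was 8.60, inside the range of the other KO HDM arrays. Of the KO HDM arrays, KO HDM 4 lay nearest to KO saline for Il1a, Il1rn, Casp1 and Il18r1 but farthest from it for Il1b. Most members thus ranked lowest on this array, but they shared no single direction relative to KO saline.

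**Figure D4:**
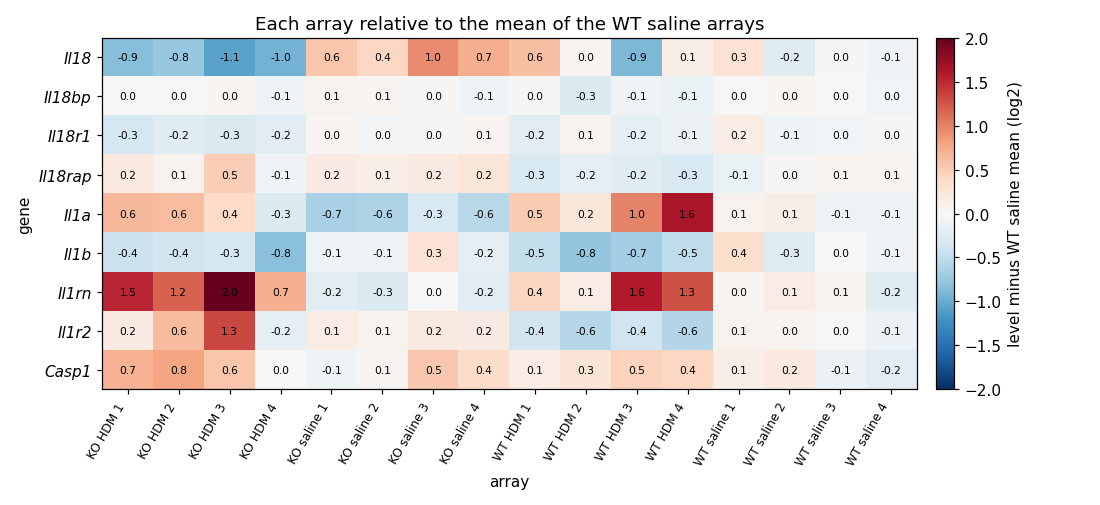
Level of each gene on each array minus the mean of the WT saline arrays (log2), red for higher and blue for lower. The Il18 row is blue on all 4 KO HDM arrays and on WT HDM 3 and red on the KO saline arrays and on WT HDM 1 (0.59), and the Il1rn row is red on the KO HDM arrays and on WT HDM 3 and 4, and paler on WT HDM 1 (0.44).

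Other genes of these pathways were followed in 6 lists with 72 measured genes. With HDM in knockouts 8 rose and 6 fell (19.4% of the lists, 8.84% of all genes), with a median difference of -0.003 against -0.03 for all genes. In wild types 9 rose and 10 fell (26.4% of the lists, 17.6% of all genes), with a median of -0.06 against -0.05. Between genotypes 9 were higher and none lower in KO HDM than in WT HDM lungs (12.5% of the lists, 11.7% of all genes), and none passed under saline by limma. In each list more genes failed than passed the test in every comparison.

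The shares of all genes that passed with HDM were 8.84% in knockouts and 17.6% in wild types. Among 6 related ligands Il33, an alarm cytokine of epithelium, rose with HDM in knockouts (0.63, SE 0.12, limma adjusted p = 0.00381) and in wild types (0.49, SE 0.12, limma adjusted p = 0.0151). Il1f9, an older symbol of the gene for IL-36γ, fell in both, with differences of -0.55 in knockouts (limma adjusted p = 0.00504) and -0.77 in wild types (limma adjusted p = 0.000502). Among 5 related receptors 1 passed, Il1rl2, the IL-36 receptor, which rose in wild types (0.31, limma adjusted p = 0.00734). In knockouts Il1rl2 was 0.16 and did not pass (limma adjusted p = 0.167). The accessory chain Il1rap, shared by several of these receptors, was 0.11 in knockouts and 0.19 in wild types and did not pass. On chromosome 1 the reference table places Il1r2, Il1r1, Il1rl2, Il1rl1, Il18r1 and Il18rap next to each other in this order. Of the 4 that were measured, Il18r1 fell with HDM in knockouts, Il1rl2 rose and Il18rap fell in wild types, and Il18rap and Il1r2 were both higher in KO HDM than in WT HDM lungs. Differences between these genes were not tested.

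With HDM 4.96% of all genes rose and 3.88% fell in knockouts, and 7.86% rose and 9.72% fell in wild types. Of 21 inflammasome and cleavage genes, 4 rose and 1 fell with HDM in knockouts, and 4 rose and 2 fell in wild types. Of these, 2 rose in both: P2rx7, the ATP-gated channel that triggers the NLRP3 inflammasome (0.28 in knockouts, 0.33 in wild types), and Naip6, of a family of sensors with near-identical copies whose probes may be shared (0.44 and 0.67). Nlrp3, the sensor itself, fell in knockouts (-0.31, SE 0.07, limma adjusted p = 0.00926) and did not pass in wild types (-0.06, limma adjusted p = 0.533). Casp8, a protease that can also cut IL-1β, and Aim2, a DNA sensor, rose in wild types (0.44 and 0.64). In knockouts they were 0.16 and 0.53 and did not pass (limma adjusted p = 0.274 and 0.0613). Between KO HDM and WT HDM lungs 5 were higher and none lower, with the sensor Naip5 at 0.66 (limma adjusted p = 0.00764), Naip2 at 0.53, Nlrp1a at 0.43 and Nlrp1b at 0.35. Over all genes 5.84% were higher and 5.83% lower in that comparison. Under saline Naip5, Naip2, Nlrp1a and Nlrp1b were also higher in knockouts, by 0.32, 0.23, 0.07 and 0.13, and none passed. No gene of this list passed for the difference between the HDM changes. Nlrp1a and Nlrp1b are also close copies.

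For the counts that follow, 4.96% of all genes rose and 3.88% fell with HDM in knockouts, and 7.86% and 9.72% in wild types. Of 16 signalling genes downstream of the receptors, 1 rose with HDM in knockouts, Tnfaip3, an inhibitor of NF-kB signalling (0.46, SE 0.10, limma adjusted p = 0.00876). In wild types 3 rose, among them the kinase Irak2 (0.24), and Myd88, the adaptor of the signalling IL-1 and IL-18 receptors, fell (-0.33, SE 0.07, limma adjusted p = 0.00667). Myd88 and Tnfaip3 were higher in KO HDM than in WT HDM lungs (0.35 and 0.38), where 5.84% of all genes were higher. Of 12 IL-1 target genes, 3 fell in both genotypes: the neutrophil attractant Cxcl5 (-1.23 in knockouts, -1.55 in wild types), the chemokine Ccl20 (-0.93 and -0.96) and the prostaglandin enzyme Ptgs2 (-0.52 and -0.49). In knockouts the acute phase gene Saa3 (1.18, SE 0.35, limma adjusted p = 0.0435) and the nitric oxide synthase Nos2 (0.64, SE 0.13, limma adjusted p = 0.004) rose. Nos2 was the 1 gene of the 72 whose HDM change differed between genotypes by the test of that difference (0.81, SE 0.18, limma adjusted p = 0.0424). That is 1.39% of the 72, against 0.802% of all genes.

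On the IL-18 side, Ifng, the cytokine that IL-18 and IL-12 induce together, averaged 8.20 in KO HDM and 8.22 in KO saline lungs and 8.26 in WT HDM and 8.29 in WT saline lungs, with no test passed. Whether this probe set read above background was not tested, so an unchanged level was not shown. Of 12 genes of the IL-18 and IL-12 axis 1 fell with HDM in knockouts, the death ligand Fasl (-0.27, limma adjusted p = 0.013). In wild types 3 fell, which were both chains of IL-12, Il12a (-0.27) and Il12b (-0.21), and the receptor chain Il12rb1 (-0.22). In knockouts these 3 were -0.18, -0.16 and -0.01 and did not pass. No gene of this list passed for the difference between the HDM changes. Stat4, the transcription factor of IL-12 signalling, was higher in KO HDM than in WT HDM lungs (0.44, SE 0.09, limma adjusted p = 0.00867). NK and T cells carry the IL-18 receptor. Of 10 NK cell markers 1 fell in knockouts (Klrd1, -0.55) and 3 in wild types, with Gzma at -0.75 and Nkg7 at -0.62. The mean level of the NK list per array was 7.79 to 8.05 in KO HDM and 8.08 to 8.49 in KO saline lungs, and 7.85 to 7.94 in WT HDM and 7.97 to 8.54 in WT saline lungs. Of 10 T cell markers 2 fell in knockouts, and 4 fell and 1 rose in wild types. Over all genes 3.88% fell in knockouts and 9.72% in wild types. The part of these cells in the values of Il18r1 and Il18rap was not tested.

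**Figure D5:**
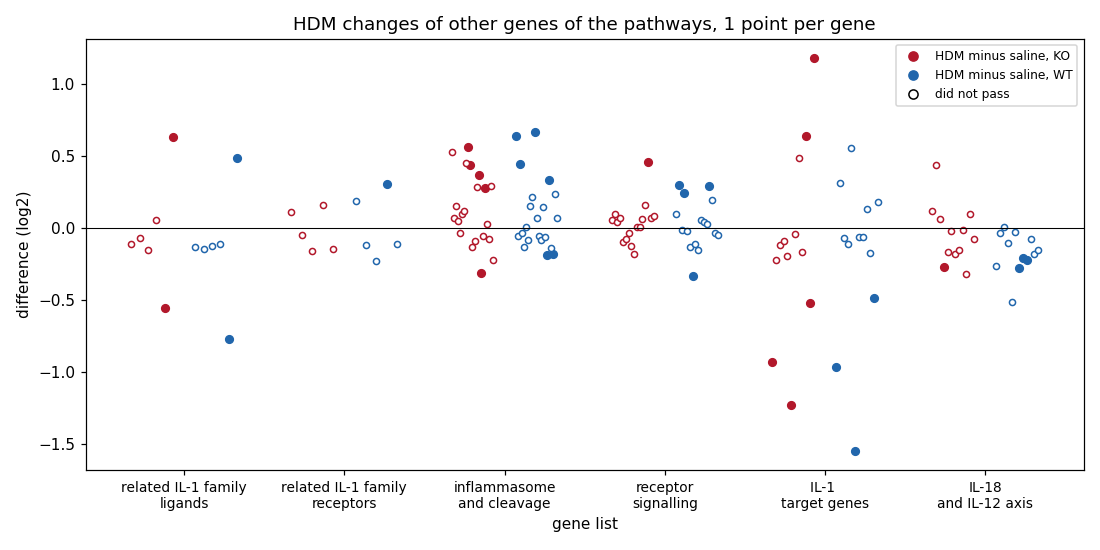
HDM minus saline differences (log2) of the genes in 6 pathway lists, 1 point per gene, knockouts left of wild types in each list, filled where the gene passed. Most points lie near 0, and the largest falls are those of Cxcl5 in the list of IL-1 target genes.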

How the data were processed

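The deposited values are log2 levels, 1 per probe set and array, which the authors made by RMA in Expression Console (per the submitters' processing notes). RMA corrects background, normalizes across arrays and summarises probes. The sources used here give neither versions nor the genome build, and scanner files were not used here. Of 35556 probe sets, 21789 had 1 symbol in the platform annotation, 1621 several and 12146 none. Names were checked by gene ID against the GRCm38.p6 reference table. The highest-mean probe set per gene was kept, which left 19938 genes, with no filter on dim genes. Array medians lay between 8.78 and 8.85, and 0 pairs of arrays were identical. The number of arrays limits the precision.

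The limma package (3.58.1, R 4.3.3) fitted 4 group means by lmFit and eBayes, with 12 residual degrees of freedom and no covariate, tested on simulated data. Tests were two-sided. The 5 comparisons, which share arrays, set HDM against saline within knockouts and within wild types, the genotypes against each other under HDM and under saline, and the HDM changes of the genotypes against each other. Groups share replicate numbers, but same-numbered arrays deviated together (r over 0.1) in 4 of 16 pairs, with r between -0.28 and 0.33, so the numbers were not taken as pairs.

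The members, gene lists, tests and alternatives were chosen with earlier results of these data known. Named genes were the members, Vldlr, up to 4 per pathway list and 3 per marker list and comparison (the largest changes past the test, or the smallest p where under 2 passed), and the 5 genes most and least like Il18, without predicted genes and receptor segments. Ifng and Il1rap were named after their values were seen. Also tried were quantile normalization, equal array medians, removal of genes below the lowest quartile or the median level, a variance trend with robust estimation, a fit of the compared groups alone, averaging over all probe sets of each gene, a block on replicate number, and arrays left out.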

Additional observations from a re-analysis of the deposited data

Results flagged for a closer look

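Among 36 groups of 4 arrays (9 genes in 4 groups), 1 array lay far from the others of its group by Dixon's test at the 95% level, where chance flags about 1 group in 20. Il18rap was at 8.58 on WT saline 1, against 8.75 to 8.78 on the other WT saline arrays. Without this array the HDM difference of Il18rap in wild types was -0.31 and passed.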

How the results depend on the processing

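The Il18 difference between HDM and saline was -1.65 to -1.47 in knockouts and -0.24 to 0.26 in wild types without each array in turn. Il18 was picked on these arrays, so these ranges are a description and no support for its fall. Without each array, 2 to 5 of the 8 tested members passed with HDM in knockouts (main count 4), 1 to 3 in wild types (4), 2 between genotypes under HDM (2), 0 under saline (0), and 0 to 1 for the difference between the HDM changes (0). With genes under the median left out, which removes members, 2 passed in knockouts, 1 in wild types and 0 between genotypes under HDM. In wild types 2 passed after quantile normalization and 1 without WT saline 2 and 3. With the compared groups fitted alone, 0 passed between genotypes under HDM, where Il18rap and Il1r2 had an adjusted p = 0.058 and 0.0699, and 1 under saline (Il1a, adjusted p = 0.0182). With the replicate number as a block the counts were 4, 4, 2, 0 and 0, and no count changed. Of 157 repeats of the 10 member calls, 37 ended and 0 reversed. Averaging over probe sets, 1 of the settings, could not change the members' values, since each has 1 probe set. Signs changed only among values that did not pass: Il18rap with HDM in knockouts was 0.0116 after quantile normalization and 0.00446 after the median shift, and Il18r1 between genotypes under saline was -0.0424 without WT saline 2 and 3. Without each array in turn, values crossed 0 for Il18rap with HDM in knockouts (-0.11 to 0.0744), for Il18r1 (-0.0048 to 0.0745), Il18bp (-0.00444 to 0.0475) and Il1b (-0.11 to 0.10) between genotypes under saline, and for the difference between the HDM changes of Il1a (-0.17 to 0.30) and Casp1 (-0.13 to 0.15). The causes were not tested.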
